A study of Mus musculus with 6 samples.

Results

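The Notch pathway was read here through 10 genes: the receptors Notch1, Notch2, Notch3 and Notch4, the ligands Jag1, Jag2 and Dll1, and the target genes Hes1, Hey1 and Heyl. Every row of the lung array table whose gene symbol equals one of these names was taken, which gave 12 probes of 25697 for 10 of 18138 symbols. Notch2 and Notch4 had 2 probes each and the other genes had 1. RNA was from whole lungs of 6 male FVB pups aged 6 days, 3 labelled hSRY-OFF and 3 labelled hSRY-ON. Each pup gave 1 array of the Illumina MouseRef-8 BeadChip type, whose beads each carry a probe for 1 transcript.

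Per the study's methods, 1 responder line, Signalox-hSRY, holds a single copy of the transgene at the H11 locus. In hSRY-OFF mice this copy is not recombined, so the ubiquitous CAG promoter drives the red fluorescent protein DsRed2, which lies between loxP sites. In hSRY-ON mice Cre removed DsRed2, and CAG then drives FLAG-tagged human SRY together with EGFP. Their fathers were heterozygous for Signalox-hSRY and their mothers carried Ddx4-Cre, whose recombinase was left in the egg, so recombination took place in the embryo while it was a single cell. The hSRY-ON pups chosen for the arrays had not inherited Ddx4-Cre itself. Both groups are on an FVB/N background by the methods and both differ from wild type by the same integration, although the study also uses the word control for littermates without a transgene, so the genotype of the hSRY-OFF pups rests on their label. The study asked how early activation of human SRY in all tissues changes gene programs in organs outside the gonad.

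Notch receptors are cell surface proteins that are cut when a ligand on a neighbouring cell binds and pulls on them. The freed intracellular domain enters the nucleus, joins the DNA-binding protein RBPJ and a Mastermind coactivator, and turns on targets of which the Hes and Hey repressors are the best known. In the lung, Notch1, Notch4 and the ligand Dll4 are known from the endothelium, Notch3 and Heyl from smooth muscle and pericytes, and Notch signalling in the airway favours secretory over ciliated cells. Dll1 and Jag2 are transmembrane ligands that activate Notch on the next cell, and neuroendocrine cells of the airway are known to carry Dll1.

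Dll1 and Heyl were lower and Hey1 was higher in hSRY-ON lungs, while no receptor passed the test. Of the 12 probes, 10 (9 genes) were bright enough to be tested, that is, 3 or more of the 6 arrays gave them a detection p under 0.05. Among these, 3 of 10 (30%) were called by limma (two-sided, adjusted p under 0.05 by Benjamini-Hochberg over all 13841 tested probes), 1 higher and 2 lower. Over all tested probes the same threshold called 26.9%, with 13.6% higher and 13.3% lower, so the share of the Notch genes was near the background. Of the 2 lower probes, that of Heyl met the detection filter only through hSRY-OFF arrays. The fitted change was below 0 for 9 of the 10 probes, against 53.2% of all tested probes, with a median of -0.19 on the log2 scale against -0.03 for all tested probes. The median size of change was 0.26 against 0.32.

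A promoter of Dll1, the ligand that was called, is printed to show which letters read by Notch targets and by SRY lie in it. It is the stretch of 250 bases before the transcription start of Dll1 that lies farther upstream, at chr17:15376933-15377182 on the minus strand of GRCm38.p6, from RefSeq, written 5′ to 3′. Capitals mark ACAAAG, a word bound by SRY and SOX factors, and CACGCG, a word bound by Hes and Hey repressors.
Dll1: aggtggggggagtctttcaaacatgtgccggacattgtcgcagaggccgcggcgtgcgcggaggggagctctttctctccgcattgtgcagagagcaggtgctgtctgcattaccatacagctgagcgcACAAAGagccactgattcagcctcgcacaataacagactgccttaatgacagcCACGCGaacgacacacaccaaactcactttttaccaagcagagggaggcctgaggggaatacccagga
ACAAAG begins 121 bases and CACGCG begins 68 bases upstream of the start. The other Dll1 promoter of the table, at chr17:15375824-15376073, held neither of these words nor any other word searched. On either strand, ACAAAG was found in 16.5% and CACGCG in 7.62% of the 32851 promoters of the table over the same length. Promoters were matched for 7 of the 10 genes (8 promoters), and CACGCG was in 3 of these 8, the printed one of Dll1 and those of Jag1 and Notch2. The N box of Hes proteins, CACNAG, was also in 3 of 8, those of Notch1, Notch2 and Notch3, and in 36.7% of all promoters. Neither the RBPJ word TGGGAA (21.6% of all promoters), nor its longer form GTGGGAA, which contains it (5.42%), nor CACGTG (6.02%), nor the second SRY word AACAAT (9.42%) was in any of the 8. Such matches describe letters in these windows and say nothing of binding. Hes1, Hey1 and Heyl had no entry.

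Values are given as log2 of normalized intensity, in the order of replicates 1, 2 and 3, and numbers can be set against each other only within 1 probe. Dll1 stood at 7.09, 7.62 and 7.55 in hSRY-OFF and at 6.74, 5.90 and 5.96 in hSRY-ON lungs. All hSRY-ON values lay below all hSRY-OFF values, and the probe was detected on all 6 arrays. The mean fell from 7.42 ± 0.29 to 6.20 ± 0.46 (SD, n = 3), a fitted change of -1.22 (SE 0.26, 95% interval -1.83 to -0.61, limma, adjusted p = 0.0150), or 2.33-fold. This was larger in size than the change of 93.6% of the tested probes. The call was narrow, since leaving out hSRY-OFF replicate 2 raised the adjusted p to 0.0617, leaving out hSRY-OFF replicate 3 to 0.0543 and leaving out hSRY-ON replicate 2 to 0.0507.

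Jag2, the other ligand with a usable signal, was at 8.311, 8.158 and 8.002 in hSRY-OFF and at 7.907, 8.038 and 8.004 in hSRY-ON lungs. The groups overlapped, and the change of -0.17 (95% interval -0.47 to 0.12) did not pass the test (limma, adjusted p = 0.339). The interval allows a fall of up to 0.47 and a rise of up to 0.12. Jag1, a ligand of endothelium and smooth muscle, was not detected on any array, at 4.50 to 4.57 in hSRY-OFF and 4.52 to 4.76 in hSRY-ON lungs. Its probe sat among the undetected ones, where the lowest values of detected probes were 5.22 to 5.46 depending on the array, and was not tested.

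**Figure D1:**
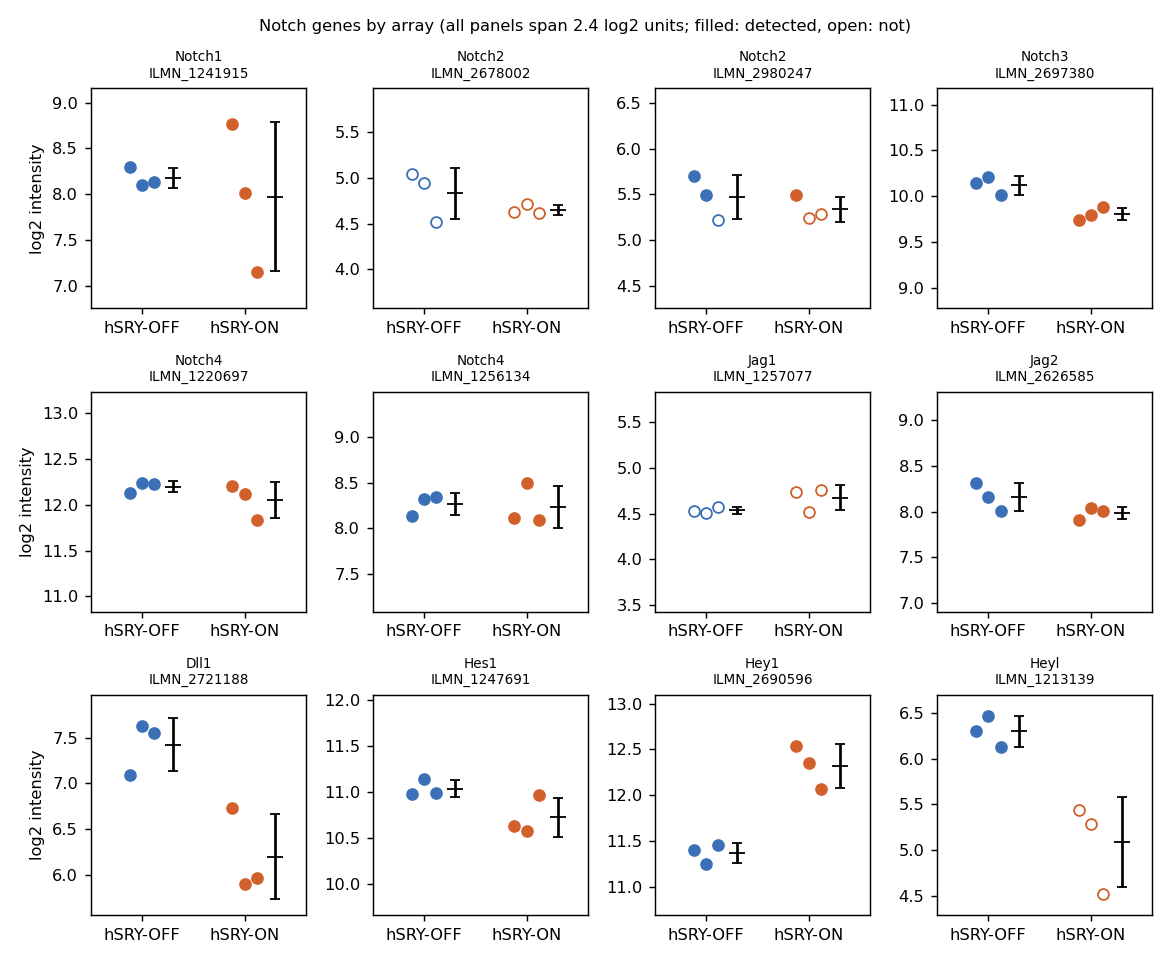
Normalized log2 intensity of each Notch gene probe on each array, with hSRY-OFF in blue and hSRY-ON in orange, filled points for arrays on which the probe was detected, and bars for the mean ± SD of 3 arrays. Each panel spans the same length of the log2 scale, so the separation of Hey1, Dll1 and Heyl and the wide spread of Notch1 in hSRY-ON can be compared by eye, but the levels of different probes cannot.

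Among the receptors, Notch3 showed the clearest separation. Its values were 10.14, 10.21 and 10.01 in hSRY-OFF and 9.74, 9.80 and 9.88 in hSRY-ON lungs. The groups did not overlap, and both were tight, with SDs of 0.10 and 0.07. The change of -0.31 (SE 0.12, 95% interval -0.59 to -0.04) had an unadjusted p of 0.0297 and did not pass after adjustment (limma, adjusted p = 0.0851). Without background correction its change was -0.28 and the adjusted p was 0.0382 (limma), so the side of the threshold on which Notch3 falls depends on that step.

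Notch1 was set apart by its spread. It was at 8.30, 8.10 and 8.13 in hSRY-OFF lungs but at 8.76, 8.01 and 7.15 in hSRY-ON lungs, so that hSRY-ON held both the highest and the lowest of the 6 values. The SD was 0.11 in hSRY-OFF and 0.81 in hSRY-ON, a ratio of 7.56, and the hSRY-ON SD was larger than that of 97.3% of the tested probes. The change of -0.20 had a 95% interval of -1.07 to 0.67 (limma, adjusted p = 0.710), which leaves room for a change of either sign. It turned to 0.21 without hSRY-ON replicate 3.

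Notch4, the receptor best known from endothelium, was measured by 2 probes, both detected on all 6 arrays. The brighter, ILMN_1220697, was at 12.13, 12.23 and 12.23 in hSRY-OFF and 12.21, 12.12 and 11.83 in hSRY-ON lungs. The dimmer, ILMN_1256134, was at 8.13, 8.33 and 8.34 and at 8.11, 8.50 and 8.09. Values of both groups overlapped on both probes. Their changes were -0.14 (95% interval -0.46 to 0.18, limma, adjusted p = 0.463) and -0.03 (-0.39 to 0.32, adjusted p = 0.892). The sign of the first turned, to 0.07, with median scaling, and that of the second turned in 4 of the 15 alternatives tried.

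Notch2 was close to background. Its probe ILMN_2980247 was detected on 2 hSRY-OFF arrays and 1 hSRY-ON array, at 5.70, 5.49 and 5.21 and at 5.49, 5.24 and 5.28, with a change of -0.13 (95% interval -0.50 to 0.24, limma, adjusted p = 0.567). The second probe, ILMN_2678002, was not detected on any array and was not tested, at 4.52 to 5.04 in hSRY-OFF and 4.61 to 4.71 in hSRY-ON lungs. Dim probes are compressed on this scale, so a change in Notch2 was not detectable unless it was large.

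The target genes went different ways. Hey1, a repressor that Notch induces in endothelium and elsewhere, stood at 11.40, 11.25 and 11.46 in hSRY-OFF and at 12.54, 12.35 and 12.07 in hSRY-ON lungs. Every hSRY-ON value was above every hSRY-OFF value. The mean rose from 11.37 ± 0.10 to 12.32 ± 0.24 (SD, n = 3), a change of 0.95 (SE 0.15, 95% interval 0.59 to 1.31, limma, adjusted p = 0.00621). This is 1.93-fold, with a 95% interval of 1.51 to 2.47. Before any normalization the intensities were 2751, 2329 and 3384 against 5632, 5456 and 4726, and the groups did not overlap there either. Hey1 passed the test in all 15 alternatives tried, with changes between 0.84 and 1.15.

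Heyl, a Hey family target linked to Notch3 in smooth muscle, moved the other way. Its values were 6.30, 6.46 and 6.13 in hSRY-OFF and 5.44, 5.29 and 4.52 in hSRY-ON lungs, with no overlap. It was detected on all 3 hSRY-OFF arrays and on no hSRY-ON array, where the detection p was 0.0501, 0.0652 and 0.803. Only a bound can therefore be given, and it holds only for the background correction used here. With that correction, hSRY-ON lungs had at least 1.86-fold lower Heyl. The bright group's mean was set against a floored value for each hSRY-ON array. This was the higher of the probe's value and the lowest value of a detected probe. The fitted change was smaller than this bound under other background steps, at -0.72 with an offset of 50 and -0.38 without background correction. The measured means were 6.30 ± 0.17 and 5.08 ± 0.49 (SD, n = 3) and the test passed (limma, adjusted p = 0.0133). The probe met the detection filter only through hSRY-OFF, the group in which it is high, so filter and call rest on the same values. With no filter on dim probes the adjusted p was 0.0204 (limma). Heyl no longer passed without hSRY-OFF replicate 1 (limma, adjusted p = 0.0520) or without hSRY-OFF replicate 2 (adjusted p = 0.0575). Without hSRY-OFF replicate 2, Hey1 was thus the 1 of 10 Notch gene probes still called, where 12.6% of all tested probes were.

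Hes1, the most widely used Notch target and a repressor of differentiation in airway and gut, lay between. It was at 10.98, 11.14 and 10.99 in hSRY-OFF and at 10.62, 10.58 and 10.97 in hSRY-ON lungs. The groups did not overlap, but hSRY-ON replicate 3 was next to hSRY-OFF replicate 1. The change of -0.31 (SE 0.14, 95% interval -0.65 to 0.02) did not pass (limma, adjusted p = 0.146). Without hSRY-ON replicate 3 it was -0.44 and passed (limma, adjusted p = 0.0437).

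**Figure D2:**
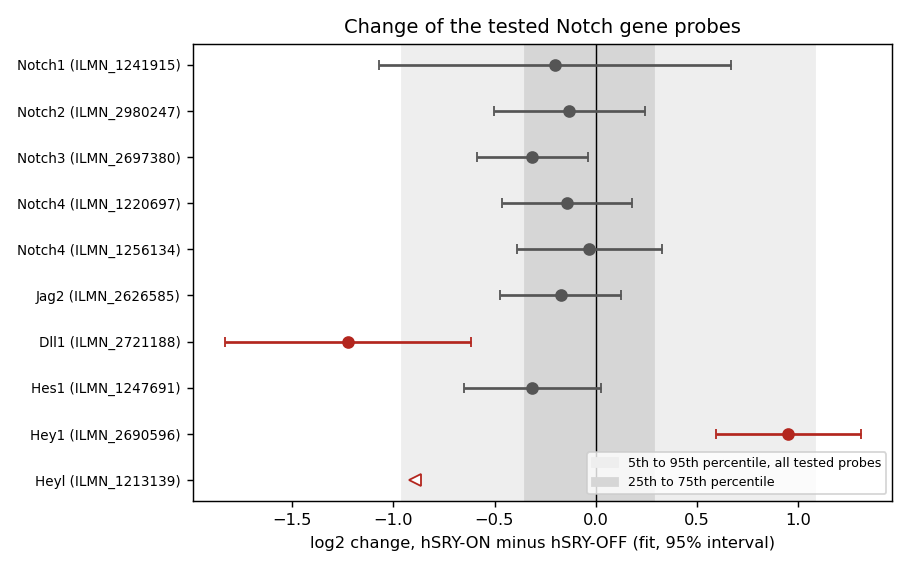
Fitted log2 change (hSRY-ON minus hSRY-OFF) of the 10 tested Notch gene probes with 95% intervals, red where the adjusted p was under 0.05. Heyl is drawn at its bound under the background correction used here, a fall of at least 0.89 on the log2 scale, as an open triangle with no interval. Shading gives the 5th to 95th (-0.96 to 1.08) and the 25th to 75th percentiles (-0.35 to 0.29) of all tested probes, and Dll1 lies outside the wider band.

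In all, the groups did not overlap for 5 of the 10 tested probes (Notch3, Dll1, Hes1, Hey1 and Heyl), against 46.6% of all tested probes. The SD was larger in hSRY-ON for 7 of the 10, against 73.6% of all, and its median over the Notch genes was 0.112 in hSRY-OFF and 0.221 in hSRY-ON.

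The profile of each gene over the 6 arrays was also set beside those of the others, as a description in which the group difference itself counts and in which the hSRY-ON values of Heyl are below detection. Hey1 ran against Notch3 (Pearson's r = -0.971) and Hes1 (r = -0.899), while Notch3 and Hes1 ran together (r = 0.880), as did Dll1 and Heyl (r = 0.895). Notch1 and Notch4 had r = 0.838, and both were lowest on hSRY-ON replicate 3. Of all tested probes of other genes, the one most like Hey1 was Pgf, a growth factor of the VEGF family (r = 0.998), most like Dll1 was Rsrc1, a splicing factor (r = 0.996), and most like Heyl was Smcr7l (r = 0.997). For Notch3 it was Kctd5 (r = 0.996), for Hes1 Smo, the Hedgehog signal transducer (r = 0.997), for Jag2 the transcription factor Sox4 (r = 0.993), for Notch4 the lysosomal chloride transporter Clcn7 (r = 0.992), for Notch2 Tpd52l1 (r = 0.992) and for Notch1 Jph2 (r = 0.995). With 6 arrays such values are common. For Hey1, 476 tested probes had r over 0.95, and for Dll1, 198 did.

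The rest of the pathway was described through 61 further genes in 8 lists, each gene by its brightest tested probe. Of these genes 56 were on the array under a name that could be matched and 43 were tested, of which 9 were called, 7 higher and 2 lower. This is 20.9%, against 27.9% of the 10292 genes tested in the same way (14.9% higher and 12.9% lower). The median change was 0.02, with 20 genes below and 23 above 0.

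Among the other ligands and ligand-like proteins 2 of 4 were called, both higher. Dner, a ligand-like protein of neurons, was at 5.27, 5.38 and 5.12 in hSRY-OFF and 6.78, 6.21 and 6.45 in hSRY-ON lungs, a change of 1.22 (SE 0.17, limma, adjusted p = 0.00404). Dlk2, which lacks the domain that canonical ligands use to activate Notch, rose by 0.71 (limma, adjusted p = 0.0405). Both were detected on 2 of 3 hSRY-OFF arrays and all hSRY-ON arrays, so they started near background. Dll4, the main endothelial ligand, was at 7.46, 8.27 and 7.82 and at 7.95, 7.94 and 7.71, and its change of 0.02 (95% interval -0.48 to 0.52) did not pass (limma, adjusted p = 0.952).

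None of the 5 tested enzymes that add sugars to Notch was called on its brightest probe. For the fringe gene Mfng the other probe did pass, at 7.56, 7.57 and 7.95 against 7.28, 6.07 and 5.40 (change -1.44, limma, adjusted p = 0.0474). The probe that was brightest over all 6 arrays gave -0.12 (limma, adjusted p = 0.469), so the 2 probes disagreed. Within hSRY-OFF the probe that passed was the brighter, with a mean of 7.69 against 7.08. It ranked lower over all arrays only because of its hSRY-ON values. Of the 5 genes for ligand endocytosis, which supplies the pull on the receptor, the epsin gene Epn2 was higher on its brightest probe. The values there were 10.17, 10.31 and 10.15 against 10.99, 10.92 and 10.74 (change 0.68, limma, adjusted p = 0.00920). It passed only on this 1 of its 5 probes. The others changed by 0.53, 0.52, 0.09 and -0.53, the last on a probe detected on only 1 hSRY-ON array. Of 7 genes of receptor proteolysis, Psen2, a catalytic subunit of gamma-secretase, was higher at 9.26, 10.36 and 9.55 against 8.08, 8.43 and 8.48. Its change of 1.40 (SE 0.28, limma, adjusted p = 0.0133) was the largest rise of the lists.

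In the nucleus, none of the 3 probes for Rbpj, the DNA-binding partner of Notch, was detected on any array, so its level cannot be given. Of 5 tested activators, the acetyltransferase gene Kat2a was lower, from 8.98, 9.09 and 8.95 to 8.25, 8.31 and 8.26 (change -0.73, SE 0.11, limma, adjusted p = 0.00501). Of 8 corepressors, Cir1, listed on the array as 1700023B02Rik, was higher by 0.77 (limma, adjusted p = 0.0246) on its brighter probe, while its second probe changed by -0.09 and did not pass (limma, adjusted p = 0.854). Tle4, a Groucho corepressor, was not called on its brightest probe (-0.12) but was lower on a dimmer one (-0.72, limma, adjusted p = 0.0378). Among 7 negative regulators, Dtx4 was higher by 0.74 (limma, adjusted p = 0.00844) and on its second probe by 0.71. Dtx2 was not called on its brightest probe (0.23) but was higher on a dimmer one (0.49, limma, adjusted p = 0.0364). Its remaining probe, at 0.34, did not pass. Numb, which sends Notch to degradation, was lower on its brightest probe (change -0.50, limma, adjusted p = 0.0450). The other 3 Numb probes changed in the same direction (-0.42, -0.32 and -0.27) but did not pass. Nrarp, a feedback inhibitor that Notch itself induces, was at 10.76, 11.63 and 11.62 in hSRY-OFF and 10.78, 10.69 and 10.92 in hSRY-ON lungs. The groups overlapped because of hSRY-OFF replicate 1, and the change of -0.54 (95% interval -1.12 to 0.04) did not pass (limma, adjusted p = 0.144).

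Of the other Hes and Hey factors 2 could be tested. Hes6, which opposes Hes1, was at 9.97 ± 0.03 (SD, n = 3) in hSRY-OFF lungs and at 10.35, 10.54 and 10.48 in hSRY-ON lungs, a rise of 0.49 (limma, adjusted p = 0.0200). Hey2, the closest relative of Hey1, was at 6.72, 6.73 and 6.38 and at 7.02, 7.52 and 6.87. Its groups did not overlap either, yet the change of 0.53 (95% interval 0.06 to 0.99) did not pass (limma, adjusted p = 0.0900). Both probes of Hes5 failed the detection filter, with 1 of them detected on 1 hSRY-OFF array.

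**Figure D3:**
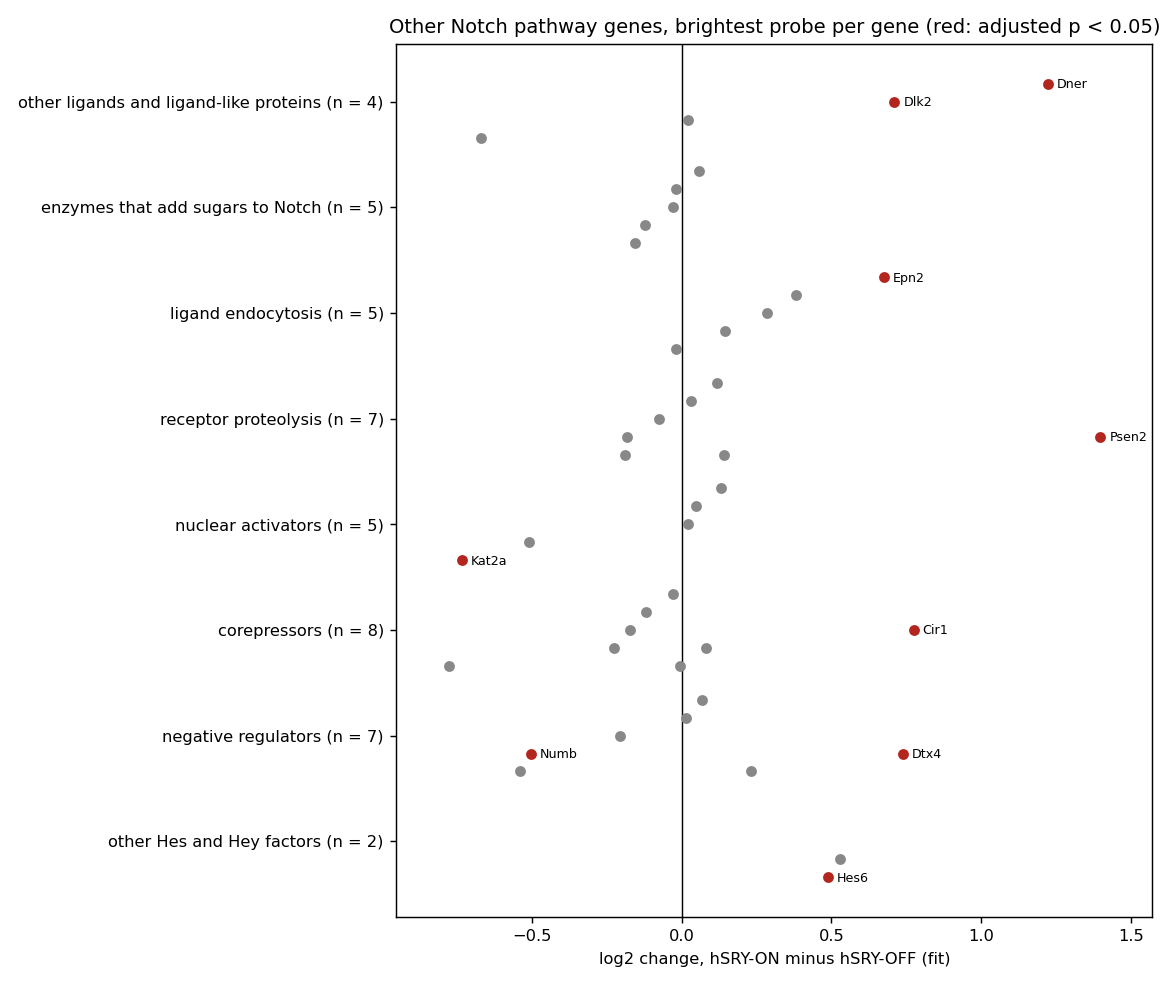
Fitted log2 change (hSRY-ON minus hSRY-OFF) of the brightest tested probe of 43 other Notch pathway genes, 1 point per gene, in 8 lists, red and named where the adjusted p was under 0.05. The 7 genes that were higher and the 2 that were lower are spread over 7 of the 8 lists, and most points lie close to 0.

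The tissue label was borne out by Sftpc, the surfactant gene of alveolar type II cells, which was detected on all 6 arrays at 13.92 to 14.34. Whole lungs were measured, so fewer cells of a type and less RNA per cell cannot be told apart, and markers of the cell types that carry Notch genes moved as well. Over all genes read by their brightest tested probe, 27.9% were called, 14.9% higher and 12.9% lower. Each count of called markers is to be read beside these shares, and with so few genes per list some counts lie near them. Of 7 tested smooth muscle and pericyte markers, where Notch3 and Heyl are known to be expressed, 4 were lower (Acta2, Des, Myh11 and Pdgfrb), all 7 changes were below 0 with a median of -0.62, and their summed linear signal was 30888 to 33104 in hSRY-OFF and 16180 to 23045 in hSRY-ON lungs. Endothelial markers had 3 of 7 lower (Cdh5, Cldn5 and Tie1) and a median of -0.42, and arterial ones 1 of 5 (Sox17). Their sums were 62600 to 67896 against 49861 to 51843, and 11292 to 11960 against 8552 to 11555.

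All 5 ciliated cell markers were higher, with a median of 1.38 and sums of 1519 to 1655 against 4099 to 4717, as were 2 of 4 airway secretory markers (Cyp2f2 and Scgb3a1). All 5 tested proliferation markers were lower, with a median of -1.47 and sums of 5661 to 7048 against 1679 to 3623, highest within hSRY-ON in replicate 3 for each of the 5. Among the 5 cardiac muscle markers tested, Nppa and Actn2 were higher and Myl4 was lower, with sums of 6286 to 8364 against 4252 to 8999. Macrophage markers were higher in 3 of 4 (Cd68, Marco and Mrc1), fibroblast markers changed in both directions (Dcn higher, Col1a1 lower), Abca3 and Sftpb were the 2 higher of 4 alveolar type II markers, and none of 3 alveolar type I markers was called. The markers Kdr (endothelium), Cnn1 (smooth muscle) and Hopx (alveolar type I) failed the detection filter. The part of these shifts in the changes of Dll1, Hey1 and Heyl was not tested.

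**Figure D4:**
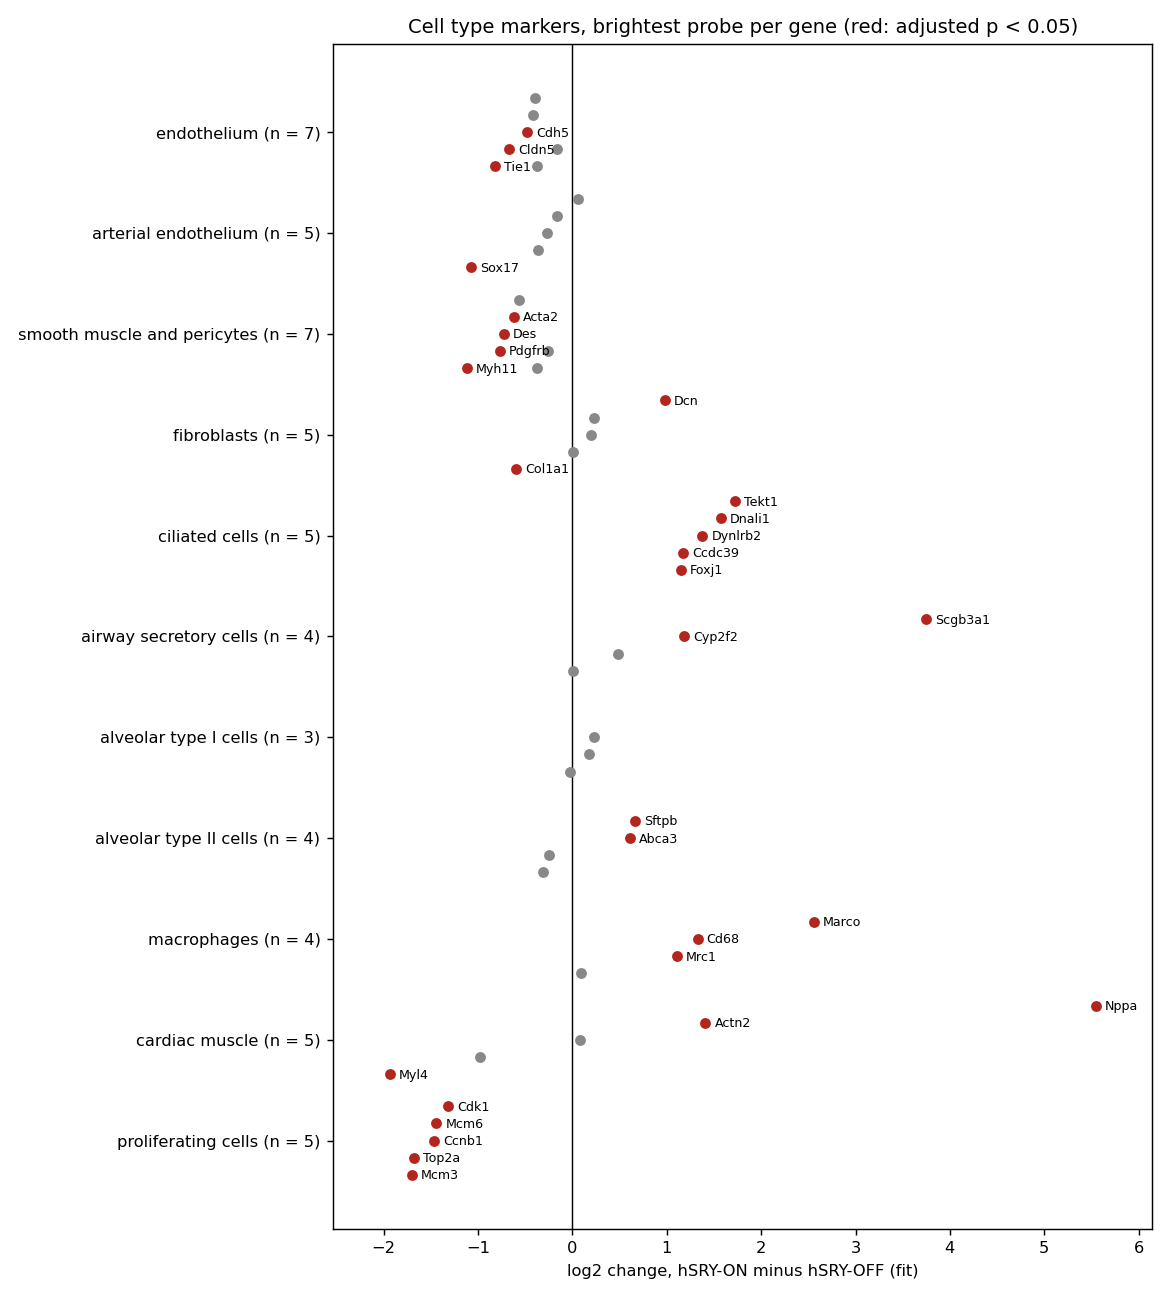
Fitted log2 change (hSRY-ON minus hSRY-OFF) of the brightest tested probe of each cell type marker, 1 point per gene, in 11 lists, red and named where the adjusted p was under 0.05. Proliferation, smooth muscle and general endothelial markers lie below 0 and ciliated cell markers above 0, while 1 of 5 arterial markers, Gja5, lies above 0 at 0.06, beside which the changes of Heyl, Dll1 and Hey1 can be read.

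The calls were compared over the alternatives in processing. Hey1 kept its call in 15 of 15, Dll1 in 12 of 15 and Heyl in 12 of the 14 in which it was tested. Changes of Dll1 ranged from -1.50 to -0.54, smallest when no background was subtracted, and the adjusted p of Heyl ranged from 0.00652 to 0.0575 (limma). Notch3 and Hes1 stayed below 0 in all 15, each passing in 1, and Notch1 changed sign in 1.

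**Figure D5:**
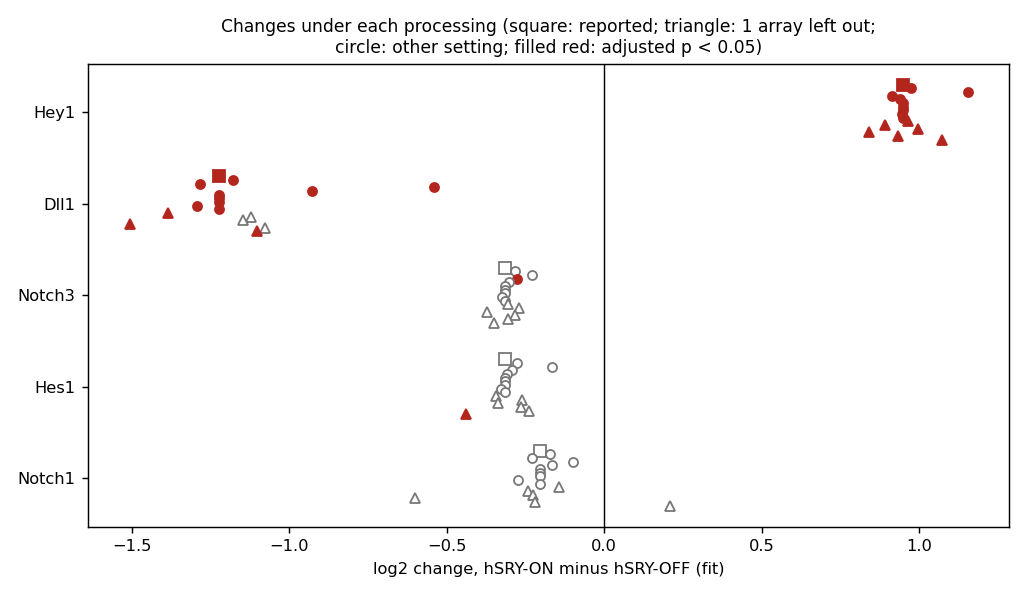
Fitted log2 change (hSRY-ON minus hSRY-OFF) of 5 Notch genes as reported (square), with 1 array left out (triangles) and under other processing (circles), filled red where the adjusted p was under 0.05. Hey1 is filled at every setting, and Dll1 has 3 open triangles.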

How the data were processed

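RNA of 6 lungs (3 hSRY-OFF, 3 hSRY-ON) was turned into biotin-labelled cRNA and each put on 1 array. The authors deposited bead intensity per probe and array on a linear scale, not background-corrected or normalized, with a detection p-value, the share of negative controls brighter than the probe, also deposited by the authors. The software that summarised the beads is not given in the sources used here. Between 13191 and 14134 probes were detected per array, median intensity ranged from 177.1 to 204.0, and the number of arrays limits precision. No 2 arrays held identical values.

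The study's methods name the R package TCC, which expects counts, and the submitters' processing notes name limma. limma 3.58.1 in R 4.3.3 was used here. Background was estimated from detection p-values (normexp, offset 16), then arrays were brought to equal quantiles and put on a log2 scale. Both steps matter to the values. The offset understates changes of dim probes, and quantile normalization removes a shift common to all probes. A probe was kept where 3 or more of 6 arrays had a detection p under 0.05 (13841 probes). The comparison used lmFit and eBayes with group as the only term, and its p-values (Benjamini-Hochberg over the 13841 probes) measure only the spread between these mice. The pipeline was tested on simulated data in which both groups had the same spread. That test does not cover the larger spread in hSRY-ON seen here for 73.6% of all tested probes.

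Named genes were every member, Dll4, Rbpj, Nrarp, Hes5, Hes6 and Hey2 whatever their result, up to 3 called genes with the smallest p of each pathway list, and the gene most correlated with each member. Mfng, Tle4, Dtx2 and marker genes were named after their values were seen. Members and lists were chosen with earlier results of these data known. Older array symbols were matched through RefSeq synonyms (Gp38 is Pdpn, Emr1 is Adgre1, Cdc2a is Cdk1). Alternatives were 2 other normalizations, 2 other background corrections, 2 other filters, robust estimation with a variance trend, array weights, the replicate number as a block, and each array left out in turn with the probe filter unchanged.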

Additional observations from a re-analysis of the deposited data

How the results depend on the processing

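Over the other normalizations, background corrections, filters and weights, the Notch gene calls were 2 to 4, and all tested probes had a median change between -0.04 and 0.02. The 4 calls, of 10 tested, came without background correction, where 29.6% of all tested probes were called. The 2 calls were of 8 tested with detection on all 6 arrays, where 29.3% of all tested probes were called. Requiring detection on all 6 arrays left 1 lower Notch gene, because Heyl was then not tested. Without background correction Notch3 passed (-0.28, limma, adjusted p = 0.0382). Notch4 changed sign with median scaling on its brighter probe (0.066) and with array weights on its dimmer probe (0.0013), neither of which passed. Of the other pathway genes, 1 rather than 2 was called lower with cyclic loess, median scaling, no filter and the replicate block. The replicate block called 2655 probes (19.2%) and no filter called 3367 of 25697 (13.1%), against 3728. Replicate numbers gave no sign of pairing the samples (correlations of deviations -0.107, 0.0957 and -0.0927, with 2 of 6 arrays closest to their own number). The highest correlation, 0.162, was between hSRY-OFF replicate 3 and hSRY-ON replicate 1. With 3 arrays per group such values cannot exclude a pairing. The block changed no call of a Notch gene probe.

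Leaving out 1 array at a time gave 1 to 4 Notch gene calls, 0 to 3 of them lower. The fewest came without hSRY-OFF replicate 2, where 12.6% of all tested probes were called, the most without hSRY-ON replicate 3, where 27.6% were. For the other pathway genes it gave 5 to 10 calls, 3 to 8 higher and 1 to 3 lower. Changes ranged from -0.60 to 0.21 for Notch1, -0.17 to 0.041 for the dimmer Notch4 probe, -1.50 to -1.08 for Dll1 and -0.44 to -0.24 for Hes1. The fitted difference of Heyl, which has no size beyond its bound because hSRY-ON was not above background, ranged from -1.41 to -0.93. Calls over all probes ranged from 1652 without hSRY-OFF replicate 1 to 4442 without hSRY-ON replicate 1. Of all values set against their reported ones, 207 kept their direction and side of the threshold or, for counts, stayed within 1.5 times. This includes changes that were never called. Of the rest, 18 counts moved further, 6 changes reversed sign, 5 lost their call and 2 gained one. Signal over background limits Jag1, Notch2, Rbpj and Hes5, which were at or near it. The causes of these changes were not tested, apart from Heyl under the stricter filter.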
